A study of Mus musculus with 292 samples.

Results

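Tbx21, Cdhr1, Dlx2 and Th, 4 genes that mark neurons of the olfactory bulb, were followed across the whole brains of 292 F2 mice. The members were every probe annotated to these genes. Each gene had 1 probe, so 4 of the 23549 probes kept, and 4 of 10835 named genes, are described here, and none of the 4 had a missing value. The inbred mouse strains C57BL/6J and C3H/HeJ were crossed in both directions and their F1 offspring intercrossed, and both sexes were kept. Every mouse was fed chow (4% fat) for 8 weeks and a Western diet (42% fat, 0.15% cholesterol) over 12 more weeks, and its brain was taken at 20 weeks after 12 h without food. Brain RNA of each mouse, labelled with Cy3, was hybridised on 1 array against a Cy5-labelled pool of equal portions from all mice, with no technical repeat and no dye swap. A value is the log10 of mouse over pool.

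The mice form a single group in the labels, with no field of sex or cross direction for any single animal in the sources used here. The comparisons below therefore use the mouse numbers: 141 mice numbered from 213, against 151 mice numbered up to 212. In the lower block the description is spelled in 2 ways, which gives 77 mice of form 2 and 74 mice of form 1. All mice from 213 carry form 1. Form 2 is the spelling with the words F2 Female, which were not read here as the sex of a mouse. These are number blocks and spellings, not treatments or genotypes. The Y-linked gene Eif2s3y had a median of -0.0631 in mice from 213. In mice up to 212 its median was 0.281 in form 2 and -1.65 in form 1. It lay above the pool in 76 of 77 form 2 mice and in 1 of 74 form 1 mice up to 212. Within the lower block the spelling thus moved with a Y-linked gene. In mice from 213, all of form 1, the values of Eif2s3y fell into separate groups. They ran from -1.89 to -1.38 and from -0.0975 to 0.123, with no mouse between.

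The olfactory bulb receives the axons of sensory neurons of the nose in its glomeruli, where mitral and tufted cells relay the signal to the cortex and local interneurons shape it. The T-box transcription factor Tbx21 and the cadherin-like membrane protein Cdhr1 are markers of mitral and tufted cells. The homeodomain factor Dlx2 is used by GABAergic interneurons and their migrating precursors, and Th, tyrosine hydroxylase, makes the precursor of dopamine in bulb periglomerular cells, in the midbrain and hypothalamus, and in noradrenergic neurons of the brainstem. In bulk tissue, fewer cells of a type (or a smaller share of bulb in the dissection) and less RNA per cell cannot be told apart.

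Over all probes, array medians lay between -0.0073 and 0.0133 and the array SD between 0.0437 and 0.2. Pairs of arrays correlated across probes, which are not independent replicates, with a median r of 0.109 and a range from -0.638 to 0.795, and 3.39% of pairs lay under -0.3. The direction of the ratio follows the dyes in the labels and the low values of the Y-linked gene in part of the mice. Reversing it would turn the sign of every level and block difference and leave every slope and correlation as it is. Signal over background is unknown, since no intensities were used, and the number of arrays is what limits the precision that can be stated.

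Tbx21 and Th varied widely between brains, and Cdhr1 and Dlx2 varied little. The SD of the log10 ratio was 0.136 for Tbx21 (1.37-fold, above 97.1% of probes) and 0.114 for Th (1.3-fold, above 94.9%). It was 0.0378 for Dlx2 (1.09-fold, above 27.2%) and 0.0298 for Cdhr1 (1.07-fold, above 11%). From the 5th to the 95th percentile over mice, Tbx21 spanned 2.53-fold, Th 2.36-fold, Dlx2 1.32-fold and Cdhr1 1.25-fold. The 2 mitral and tufted genes thus lay at opposite ends of the range of spread.

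The genes lie on separate chromosomes in GRCm38.p6: Tbx21 at chr11:97098007-97115331, Cdhr1 at chr14:37077849-37098347, Dlx2 at chr2:71543408-71546754 and Th at chr7:142892779-142899995. Their promoters are shown because these regulators and markers are compared with each other below. The window holds 250 bases before and 50 after the annotated start, from RefSeq on GRCm38.p6, written 5′ to 3′ on the gene's strand, which is the minus strand for each. The coordinates are chr11:97115282-97115581 for Tbx21, chr14:37098298-37098597 for Cdhr1, chr2:71546705-71547004 for Dlx2 and chr7:142899946-142900245 for Th. Capitals mark matches on either strand to TAATTA or TAATTG, letters of homeodomain sites, to TGACGTCA, the cAMP response element, and to GGTGTGA, a T-box half-site.
Tbx21: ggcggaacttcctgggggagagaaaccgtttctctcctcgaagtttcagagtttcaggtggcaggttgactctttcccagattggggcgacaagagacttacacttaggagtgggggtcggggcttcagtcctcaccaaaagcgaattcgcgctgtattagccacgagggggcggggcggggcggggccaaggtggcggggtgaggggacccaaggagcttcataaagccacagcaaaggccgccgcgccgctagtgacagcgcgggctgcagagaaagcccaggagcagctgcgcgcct
Cdhr1: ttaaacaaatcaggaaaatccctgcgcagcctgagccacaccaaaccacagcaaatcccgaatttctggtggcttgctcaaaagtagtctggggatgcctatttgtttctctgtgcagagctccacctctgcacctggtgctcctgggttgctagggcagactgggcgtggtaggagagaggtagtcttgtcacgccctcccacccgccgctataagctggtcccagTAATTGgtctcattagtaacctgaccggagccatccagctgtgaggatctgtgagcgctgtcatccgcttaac
Dlx2: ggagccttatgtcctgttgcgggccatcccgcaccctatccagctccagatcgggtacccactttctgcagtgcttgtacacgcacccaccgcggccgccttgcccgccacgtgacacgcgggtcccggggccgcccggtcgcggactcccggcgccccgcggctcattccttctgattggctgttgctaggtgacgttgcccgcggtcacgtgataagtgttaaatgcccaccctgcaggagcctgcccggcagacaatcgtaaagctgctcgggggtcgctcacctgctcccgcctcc
Th: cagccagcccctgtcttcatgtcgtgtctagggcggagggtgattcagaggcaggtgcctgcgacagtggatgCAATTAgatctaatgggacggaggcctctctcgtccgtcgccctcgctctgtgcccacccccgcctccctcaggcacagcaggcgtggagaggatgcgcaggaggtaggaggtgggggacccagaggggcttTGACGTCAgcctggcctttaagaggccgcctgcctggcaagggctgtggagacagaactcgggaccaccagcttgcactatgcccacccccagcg
The Cdhr1 window held TAATTG at position -23 on the gene's strand, counted from the annotated start. The Th window held the same letters on the opposite strand (CAATTA) at position -177 and TGACGTCA at position -45, and the Tbx21 and Dlx2 windows held none of the 4 motifs. Of 32851 RefSeq promoter windows of this length, 8.0% held TAATTG, 5.29% TAATTA, 1.79% TGACGTCA and 3.98% GGTGTGA. A match describes letters only. The array data hold no measure of factor binding.

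Tbx21 ran from -0.255 through a median of -0.00742 to 0.276 in mice from 213, against -0.371, -0.0468 and 0.572 in mice up to 212. The range of the mice from 213 lay inside that of the mice up to 212. The mean was -0.0162 ± 0.123 in mice from 213 (SD, n = 141) and -0.0319 ± 0.147 in mice up to 212 (SD, n = 151). Within the lower block Tbx21 also shifted with mouse number. Among form 2 mice, it lay under the pool in every mouse from 54 to 100 and above it in most mice from 198 to 212.

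Cdhr1 had a lowest value of -0.0646, a median of -0.0139 and a highest value of 0.0783 in mice from 213, against -0.0705, -0.00218 and 0.118 in mice up to 212. Dlx2 had -0.139, -0.0152 and 0.122 in mice from 213, against -0.0702, 0.00173 and 0.132 in mice up to 212. For both genes most mice from 213 lay under the pool: 98 of 141 for Cdhr1 and 104 of 141 for Dlx2, against 82 of 151 and 74 of 151 mice up to 212.

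Th ran from -0.189 through 0.033 to 0.388 in mice from 213, against -0.206, -0.0218 and 0.304 in mice up to 212. It lay above the pool in 88 of 141 mice from 213, against 63 of 151 mice up to 212. The ranges overlapped here too.

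**Figure D1:**
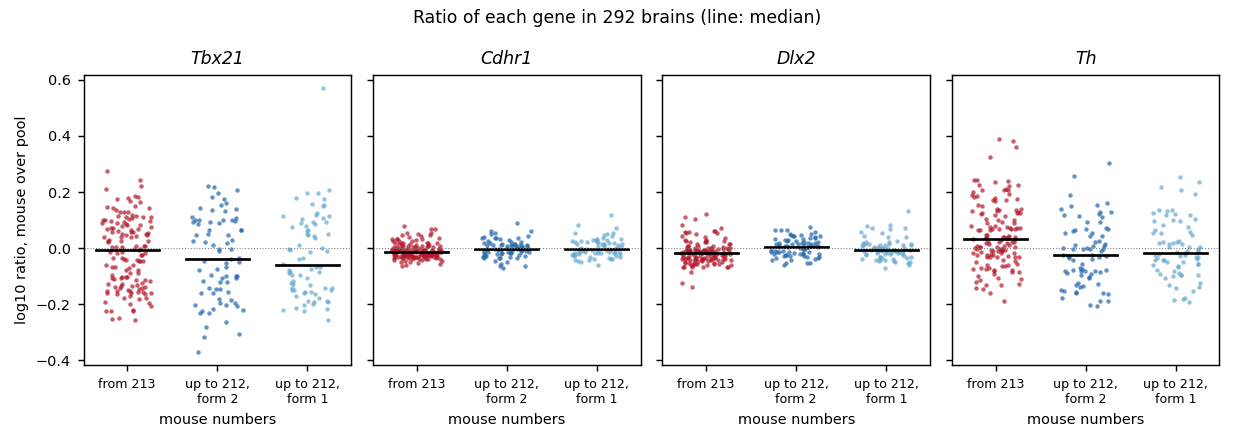
Log10 ratio of mouse over pool for Tbx21, Cdhr1, Dlx2 and Th, with 1 point per mouse, in 141 mice from 213, 77 mice up to 212 of form 2 and 74 of form 1; the horizontal line is the group median. Tbx21 and Th spread over a far wider range than Cdhr1 and Dlx2, the highest Tbx21 value (0.572) is a single form 1 mouse, and the Th median lies higher in mice from 213 (0.033) than in mice up to 212 (-0.0218).

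Set against the mean of both spellings of the lower block, Th was higher and Cdhr1 and Dlx2 were lower in mice from 213. The difference for Th was 0.0566 ± 0.0129 on the log10 scale (SE, 1.14-fold; limma adjusted p = 3.81e-05). For Dlx2 it was -0.0162 ± 0.00434 (1.04-fold lower; limma adjusted p = 0.00047) and for Cdhr1 -0.00968 ± 0.00347 (1.02-fold lower; limma adjusted p = 0.00967). Tbx21 differed by 0.0156 ± 0.0159, which did not pass (limma adjusted p = 0.388; 95% interval -0.0156 to 0.0468).

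That 3 of 4 genes passed is no mark of these genes, since 66.7% of the 23549 probes passed the same test, 30.6% higher and 36.1% lower in mice from 213. The size of the difference exceeded that of 85.4% of probes for Th, 43.8% for Dlx2, 42.7% for Tbx21 and 28.8% for Cdhr1. In SDs of the gene between mice it came to 0.513 for Th, -0.44 for Dlx2, -0.329 for Cdhr1 and 0.115 for Tbx21. Whether the differences of any 2 of the 4 genes differ from each other was not tested. The Cdhr1 difference no longer passed with arrays centred on their medians (-0.00685, adjusted p = 0.055) or also scaled (-0.0066, adjusted p = 0.0539), while that of Tbx21 passed with array weights (0.0337, adjusted p = 0.045). Between the spellings, form 2 minus form 1 in mice up to 212, none of the 4 genes passed (limma adjusted p from 0.941 to 0.983), where 1.3% of probes did. Since spelling moved with Eif2s3y, a difference by sex cannot be told apart from one by spelling in this contrast.

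Mice from 213, form 2 mice and form 1 mice up to 212 are called the 3 batches below, a name the labels do not use. From mouse to mouse within these batches, Cdhr1 and Dlx2 moved most closely together, although they mark different cells. Their r was 0.703 (95% interval 0.64 to 0.757, Spearman's rho 0.65, n = 292; permutation p = 1e-05 for both, the smallest that 100000 shuffles within batch can give). It was 0.729 in mice from 213 and 0.691 in mice up to 212, and 0.683 without the 2 mice farthest from the Cdhr1 median. Tbx21 followed Cdhr1 with r = 0.472 (0.377 to 0.557, rho 0.462, permutation p = 1e-05 for both, 0.451 without the 2 farthest mice). Of the 6 pairs computed, the pair of mitral and tufted genes was thus second to the pair of Cdhr1 with an interneuron gene.

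Tbx21 and Dlx2 had r = 0.373 (0.269 to 0.468, rho 0.382, permutation p = 1e-05 for both, 0.34 without the 2 farthest mice). Fitted over all probes, these 3 pairs passed with limma adjusted p = 8.02e-36 for Cdhr1 with Dlx2, 3.05e-11 for Tbx21 with Cdhr1 and 1.62e-07 for Tbx21 with Dlx2. Among all probes, 66.9% passed on Cdhr1 (38% as positive, 28.9% as negative) and 21.3% on Tbx21 (10.3% and 11.1%). In mice from 213 the slopes of Tbx21 with Cdhr1 and with Dlx2 did not pass (limma adjusted p = 0.0949 and 0.218), where 0.11% of probes did. The permutation tests of r gave p = 0.00018 and 0.00351 there. In mice up to 212 both slopes passed (limma adjusted p = 2.16e-09 and 1.07e-06), where 40.1% of probes did. Cdhr1 with Dlx2 passed in each block (limma adjusted p = 4.73e-20 and 1.57e-18).

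Over all mice, the relations of Th with the other 3 genes were weak. With Tbx21 its r was 0.153 (0.0386 to 0.264, rho 0.191, permutation p = 0.00905 for r and 0.0011 for rho, 0.167 without the 2 farthest mice), and the slope missed the threshold over all probes (limma adjusted p = 0.0561). With Cdhr1 it was 0.123 (0.00831 to 0.235, rho 0.151, permutation p = 0.0348 and 0.00972, 0.122 without the 2 farthest mice; limma adjusted p = 0.0564). In mice from 213 neither slope passed (7e-04 with Tbx21, limma adjusted p = 0.999, and -0.0238 with Cdhr1, limma adjusted p = 0.817), where 0.11% of all probes passed on Tbx21 and 58.9% on Cdhr1. In mice up to 212 both passed (0.282 with Tbx21, limma adjusted p = 0.00326, and 0.253 with Cdhr1, limma adjusted p = 0.00309), where 40.1% and 61.4% of probes did.

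With Dlx2 the relation of Th ran the other way, r = -0.153 (-0.264 to -0.0389, permutation p = 0.00858; limma adjusted p = 0.015), but it was weaker in ranks (rho -0.0932, permutation p = 0.114) and was -0.138 without the 2 farthest mice. The slope passed in mice from 213 (-0.191, limma adjusted p = 0.0327) and not in mice up to 212 (-0.11, limma adjusted p = 0.224), and r was -0.0493 with the components as covariates, which did not pass. A slope that passes was common, since 67.3% of probes passed on Dlx2 (38.1% as positive, 29.2% as negative), with 61.1% in mice from 213 and 59.9% in mice up to 212.

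**Figure D2:**
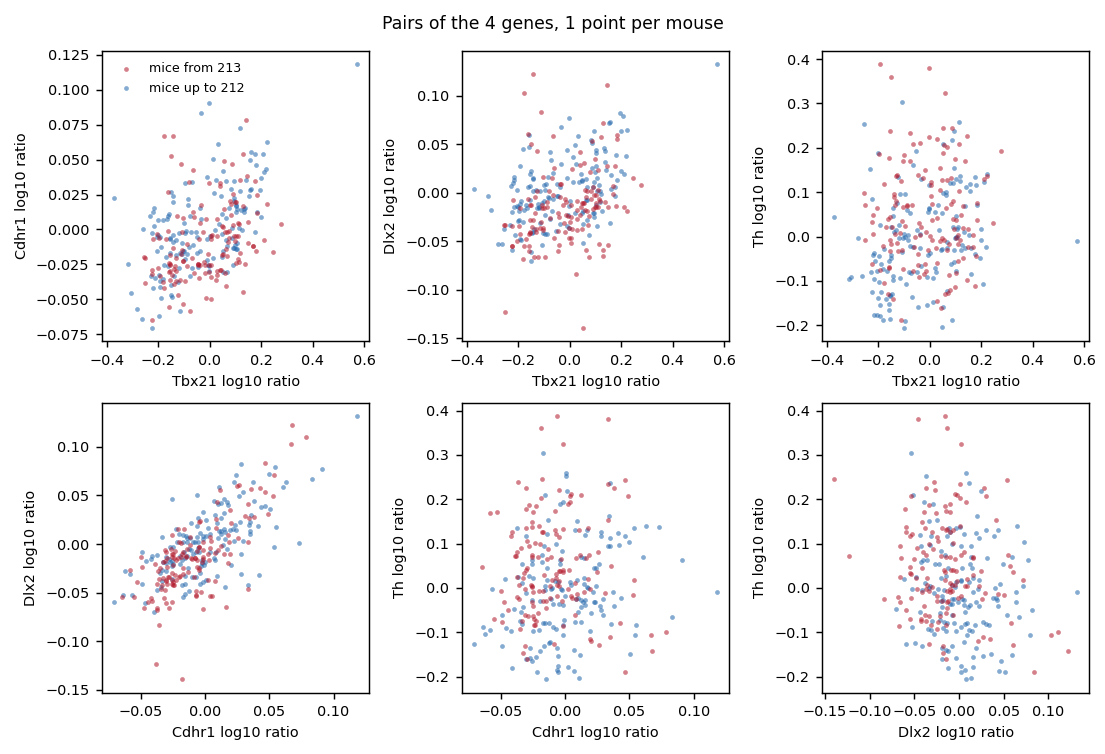
The 6 pairs of the 4 genes as log10 ratios of mouse over pool, 1 point per mouse, with mice from 213 in red and mice up to 212 in blue. Cdhr1 and Dlx2 lie along a line in both blocks (r of 0.729 and 0.691), and in the panels with Th the points spread more widely, with r over all mice between -0.153 and 0.153.

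Of the 6 pairs, 1 passed the test of a difference in slope between the number blocks. Cdhr1 and Th had a slope of -0.0238 in mice from 213, against 0.253 in mice up to 212, a difference of -0.277 ± 0.114 (SE; limma adjusted p = 0.04; permutation p = 0.0237). Of all probes, 39.8% passed this test on Cdhr1, so a pair that passes is not unusual. The difference no longer passed under 5 of the alternatives, with limma adjusted p from 0.0562 to 0.487. For all slope differences, values in mice up to 212 were standardised within each spelling, which moved with Eif2s3y. The mice from 213, with both groups of Eif2s3y values, were standardised together. The part of sex in the slope differences was not tested.

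The 3 pairs of Tbx21 all had a lower slope in mice from 213, and none passed over all probes, where 14.7% of probes passed on Tbx21. Tbx21 with Cdhr1 had 0.311 in mice from 213, against 0.581 in mice up to 212 (difference -0.27 ± 0.117, SE; limma adjusted p = 0.0911; permutation p = 0.0147). With Dlx2 it had 0.241, against 0.499 (-0.257 ± 0.117; limma adjusted p = 0.108; permutation p = 0.0452).

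Tbx21 with Th had 7e-04 in mice from 213, against 0.282 in mice up to 212 (-0.282 ± 0.117; limma adjusted p = 0.0778; permutation p = 0.0106). These 3 differences share the Tbx21 values and are not independent of each other. With the first 3 principal components of all probes as covariates they were -0.0406, -0.159 and -0.0131. For Cdhr1 with Dlx2 the difference was 0.036 (95% interval -0.162 to 0.234; limma adjusted p = 0.801), and for Dlx2 with Th it was -0.0818 (-0.305 to 0.142; limma adjusted p = 0.593), where 41.1% of probes passed on Dlx2.

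Over all mice, slopes on Tbx21 were smaller for most probes than slopes on the other 3 genes, with a few high ones. A slope is on values standardised within batch, so it is a correlation with that gene. On Tbx21, 120 probes (0.51%) had a slope of at least 0.3 in size, against 7507 (31.9%) on Cdhr1, 6831 (29%) on Dlx2 and 5730 (24.3%) on Th. The blocks differed in this: in mice from 213, 26 probes passed on Tbx21 (0.11%), against 9431 (40.1%) in mice up to 212, and 3469 probes (14.7%) passed the test of a difference in slope. That count was 90 with the components as covariates and 5307 without mouse 75. The part of the shift of Tbx21 with mouse number in the slopes, the r and the block differences was not tested. Cdhr1 ranked 11th and Dlx2 20th of 23548 probes by slope on Tbx21. Seen from Cdhr1, Tbx21 ranked 1742nd, while Dlx2 ranked 9th.

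The highest named gene on Tbx21 was Scgn, which encodes the calcium-binding protein secretagogin of bulb interneurons, with a slope of 0.82 ± 0.0585 (SE; limma adjusted p = 2.91e-40). It was 0.869 in mice from 213 and 0.775 in mice up to 212. Next came S100a5, a calcium-binding protein of olfactory sensory neurons, with 0.779 (0.79 and 0.77 in the same blocks; limma adjusted p = 2.09e-36).

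Doc2g, a protein with C2 domains that was listed here with mitral and tufted genes, followed with 0.657, then the phosphatase gene Ppm1j with 0.613 and Tfap2c, the transcription factor AP-2 gamma, with 0.608. None of these 5 slopes differed between the blocks by the test (limma adjusted p from 0.202 to 0.923). Of these 5 genes, S100a5 was in the sensory neuron list used here, Doc2g in the mitral and tufted list and the other 3 in none of the lists. At the lower end stood Slc16a4, of the monocarboxylate transporter family, with -0.388, and the aminopeptidase gene Lap3 with -0.377.

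With the 3 components as covariates, the slopes on Tbx21 were 0.93 for Scgn, 0.824 for S100a5 and 0.632 for Doc2g. With covariates in the fit, a slope is a regression coefficient and no longer a correlation. The components held 14.7%, 10.3% and 8.39% of the variance of all probes. They accounted for 6.4% of the variance of Tbx21, against 50.5% for Cdhr1, 52.6% for Dlx2, 56.9% for Th and 30.9% for the median probe. The r with the array SD was -0.02 for Tbx21, 0.263 for Cdhr1 (permutation p = 4e-05), 0.198 for Dlx2 (permutation p = 0.00138) and 0.0428 for Th; its part in the Cdhr1 and Dlx2 results was not tested.

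Slopes on Cdhr1 and Dlx2 were high for a broad set of genes, most of those at the top outside the bulb lists. Highest on Cdhr1 were Dennd6b, a DENN-domain gene, with 0.753, the kinase gene Akt2 of insulin signalling with 0.741 and the Polycomb gene Pcgf2 with 0.727. The zinc finger gene Zc3h4 and Angptl8, a secreted factor of lipid metabolism, had 0.713 each. Lowest were Spin2c with -0.659 and Sec63, of protein import into the endoplasmic reticulum, with -0.651. A second probe of Akt2 had a slope of 0.703.

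Highest on Dlx2 was Cdhr1 itself with 0.711 ± 0.054 (SE; limma adjusted p = 2.69e-33), ranked 2nd of 23548 probes behind an unnamed probe. Ckap4 (0.706), the zinc finger gene Zfp385a (0.696), the neuronal pentraxin receptor gene Nptxr (0.695) and the mitochondrial seryl-tRNA synthetase gene Sars2 (0.672) came next. Nif3l1 (-0.702) and Utp14a (-0.693), of ribosome assembly, were lowest. With the components as covariates most of these slopes were far smaller, 0.43 for Dennd6b and 0.0745 for Sars2, while Cdhr1 on Dlx2 kept 0.562.

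**Figure D3:**
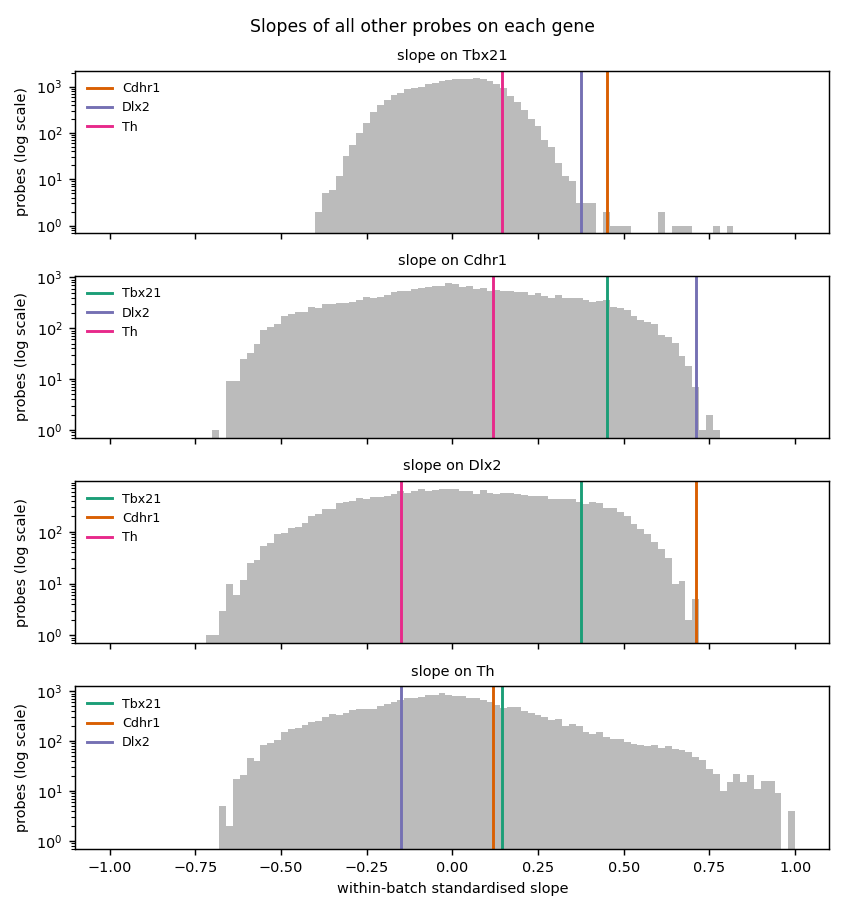
Number of probes (log scale) by their within-batch standardised slope on each of the 4 genes, with coloured lines at the other 3 genes. On Tbx21 most probes lie between -0.194 and 0.185 (5th and 95th percentile), with a thin tail to 0.82. On Th, 46 probes reach 0.9 or more.

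Th followed a set of genes almost exactly, and none of the 5 measured genes listed for dopamine synthesis and storage was in it. On Th, 46 probes (0.195%) had a slope of at least 0.9, against 0 on each of the other 3 genes. The highest named genes were Dap3, a mitochondrial ribosomal protein, with 0.991 ± 0.0289 (SE; limma adjusted p = 2.62e-114), the apolipoprotein gene Apon with 0.989 and the kinase anchor gene Akap11 with 0.987. Ppm1m, a phosphatase gene, had 0.959, and Tnfsf8, which encodes the ligand of CD30, had 0.955. Dap3 ran from -0.165 through 0.0286 to 0.351 in mice from 213, against -0.191, -0.0214 and 0.292 in mice up to 212, close to the values of Th.

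The lowest named genes were Tuba3b (-0.66) and Tuba3a (-0.635), near-identical alpha tubulin genes whose probes may not tell them apart. Of the 46 probes, 28 had a gene name (for Itln1 and Vmn2r104 another probe varied more), and these genes lay on 15 chromosomes. All 46 had an SD between 0.0667 and 0.147, and 45 of them passed as higher in mice from 213, as did 30.6% of all probes; Arap3 had a difference of 0.0148 that did not pass (limma adjusted p = 0.199). The cut of 0.9 was chosen after the slopes were seen.

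For 8 of the 28 named genes, 16 further probes of the same gene were on the array. Their slopes on Th ran from -0.134 to 0.376 with a median of 0.00918; 3 passed as positive, 2 as negative and 11 did not pass. For these 8 genes, 1 probe of the gene followed Th and its other probes did not have a slope near 0.9. Th had no second probe, so whether its own values would be matched by another probe could not be tested.

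**Figure D4:**
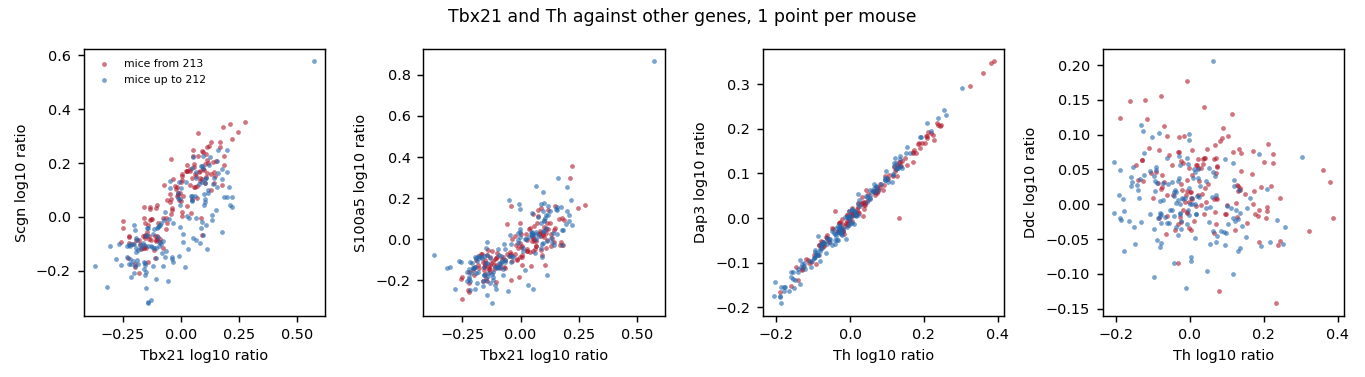
Log10 ratios of Scgn and S100a5 against Tbx21 and of Dap3 and Ddc against Th, 1 point per mouse, with mice from 213 in red and mice up to 212 in blue. Scgn and S100a5 rise with Tbx21 (slopes 0.82 and 0.779), Dap3 lies on a line with Th (0.991), and Ddc, the next enzyme of dopamine synthesis, does not (-0.213).

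Genes that carry a dopamine, midbrain or noradrenergic label were set against Th. Of 6 genes of dopamine synthesis and storage 5 were measured, and Slc18a2, the storage gene, was not. Ddc was the only measured one that makes dopamine itself. On Th, 1 passed as positive and 4 as negative, where 58.3% of probes passed (26.4% as positive, 31.9% as negative). The median slope was -0.144 against -0.0231 over all probes. The positive gene was Spr, which makes the cofactor tetrahydrobiopterin, with 0.428 (limma adjusted p = 2.25e-13). Pts, an earlier enzyme of the same cofactor, had -0.354, Ddc, which converts L-DOPA to dopamine, had -0.213 and Qdpr, which recycles the cofactor, had -0.144. With the components as covariates none of the 5 passed, where 5.64% of probes did, and the median was -0.0111, with 0.0272 for Ddc and -0.135 for Spr.

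Ddc had a lowest value of -0.143, a median of 0.0269 and a highest value of 0.178 in mice from 213, against -0.12, -4.79e-05 and 0.205 in mice up to 212. The dopamine transporter gene Slc6a3 had a slope of -0.333 on Th, with -0.0538 in mice from 213, against -0.596 in mice up to 212, and 0.092 with the components (limma adjusted p = 0.513). Of 13 midbrain dopamine neuron genes 12 were measured, 4 passed as positive (Lmx1b at 0.435 and Pitx3 at 0.309, both transcription factors of these neurons, were the highest) and 4 as negative. With the components 0 of the 12 passed as positive, Lmx1b had -0.0655, and Pitx3 turned to -0.219 and passed as negative (limma adjusted p = 0.016), the 1 gene of the 12 that did, where 5.64% of probes passed. Of 3 measured noradrenergic genes, Slc6a2, the noradrenaline transporter, passed as positive with 0.132 and Dbh, which makes noradrenaline, as negative with -0.198. Th is named here by its probe's annotation. The measured genes of its pathway did not pass together in its direction, and what the probe measures was not tested.

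Of 13 mitral and tufted genes 9 were measured. On Tbx21, 2 passed as positive, Doc2g and the T-box gene Eomes (0.271), and 1 as negative, Ntng1 (-0.181). The median slope was 0.0198 against 0.0128 over all probes, where 21.3% passed. On Cdhr1, 3 passed as positive and 2 as negative, with Doc2g at 0.495 and Slc17a6, the vesicular glutamate transporter 2, at -0.34, and a median of -0.0479 against 0.0276 over all probes, where 66.9% passed.

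Of 20 bulb interneuron genes 17 were measured. On Tbx21, 6 passed as positive and 1 as negative (median 0.119 against 0.0128 over all probes), where 10.3% of probes passed as positive and 11.1% as negative. Dlx1, the neighbour of Dlx2 in the genome and a fellow interneuron factor, had 0.48 and Dlx5 0.336, 2 genes named after their values were seen. On Dlx2, 8 passed as positive and 3 as negative (median 0.0915 against 0.0277 over all probes), where 38.1% of probes passed as positive and 29.2% as negative. Slc32a1, the vesicular GABA transporter, had 0.507, Pax6, a transcription factor of bulb interneurons, had -0.471 and Gad1, which makes GABA, had -0.316. With the components Slc32a1 had -0.029 (limma adjusted p = 0.769), and 6 passed as positive and 1 as negative, where 23.2% of probes passed. The slope of Dlx1 on Dlx2 was 0.0795 and did not pass (limma adjusted p = 0.21). It was -0.129 in mice from 213, against 0.275 in mice up to 212. With the components it was 0.368 and passed (limma adjusted p = 0.000115).

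On Th, where 58.3% of all probes passed, 3 of these 17 genes passed as positive and 5 as negative, with Dlx5 at 0.388, Gad1 at -0.471, Tshz1 at -0.422 and Etv1 at -0.414. With the components as covariates, 0 of the 17 passed on Th, where 5.64% of probes did. On Cdhr1, 7 passed as positive and 5 as negative, with Sp9 at 0.485, Slc32a1 at 0.437, Gad1 at -0.487 and Pax6 at -0.494, where 66.9% of all probes passed. With the components, Slc32a1 turned to -0.164 (limma adjusted p = 0.0165) and Gad1 to 0.0668, Sp9 had 0.0401, and 4 of the 17 passed as positive and 3 as negative, where 24.4% of probes passed. In both lists, members passed in both directions on each of the 4 genes.

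Of 9 migrating neuroblast genes 8 were measured. Sox11 had 0.916 on Th and is 1 of the 46 probes, while Sox4, of the same family, had 0.632 on Dlx2, 0.6 on Cdhr1 and -0.125 on Th. Igfbpl1 had 0.493 on Tbx21, named after its value was seen. In all, 2 of the 8 passed as positive and 0 as negative on Tbx21, 3 and 2 on Cdhr1, 2 and 3 on Dlx2 and 1 and 1 on Th, where 21.3%, 66.9%, 67.3% and 58.3% of all probes passed. The negative ones included Cd24a (-0.364 on Dlx2 and -0.288 on Cdhr1), Mki67 (-0.269 on Dlx2) and Dcx (-0.159 on Th). With the components Sox4 had 0.0928 on Dlx2 (limma adjusted p = 0.181).

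Markers of other parts were compared on the same scale. Of 8 olfactory sensory neuron genes all were measured, and on Tbx21 only S100a5 passed; Omp, the defining marker, had -0.0247 (limma adjusted p = 0.792). On Tbx21, where 21.3% of all probes passed, 0 of 5 anterior pituitary, 0 of 7 myelin and 0 of 4 hypothalamic peptide genes passed, while 3 of 5 cortical projection neuron genes passed as positive and 2 as negative (0 and 2 with the components, where 5.77% of probes passed). In other lists, 2 of 3 erythrocyte and 3 of 12 midbrain dopamine neuron genes passed as negative on Tbx21. Of 3 olfactory ensheathing glia genes 2 passed as positive, and of 7 striatal neuron genes 2 as positive and 1 as negative. On Cdhr1, 5 of 7 striatal neuron genes passed as positive and none as negative (median 0.199), and on Dlx2 4 of 7 did (0.178), where 38% and 38.1% of probes passed as positive. With the components 2 of 7 passed on each (medians 0.0375 and 0.0869), where 24.4% and 23.2% of probes passed. Of 5 cortical projection neuron genes, 3 passed as positive and 2 as negative on Cdhr1 (median 0.289), and 3 and 1 on Dlx2 (0.305). With the components these were 0 and 1 on Cdhr1 and 2 and 0 on Dlx2. Of 5 cortical interneuron genes, 2 and 0 passed on Cdhr1 (0.053), and 4 and 1 on Dlx2 (0.182). With the components 1 and 0 passed on each. Eif2s3y had 0.174 on Tbx21 (limma adjusted p = 0.0217), 0.0156 on Cdhr1, -0.0013 on Dlx2 and 0.0392 on Th. Kdm5d, the other measured gene of the sex chromosome list, had 0.0236 on Tbx21 (limma adjusted p = 0.801). On Cdhr1 it passed as negative with -0.131 (limma adjusted p = 0.0353), and -0.0724 on Dlx2 and -0.114 on Th did not pass. The part of these other cells and of sex in the slopes was not tested.

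**Figure D5:**
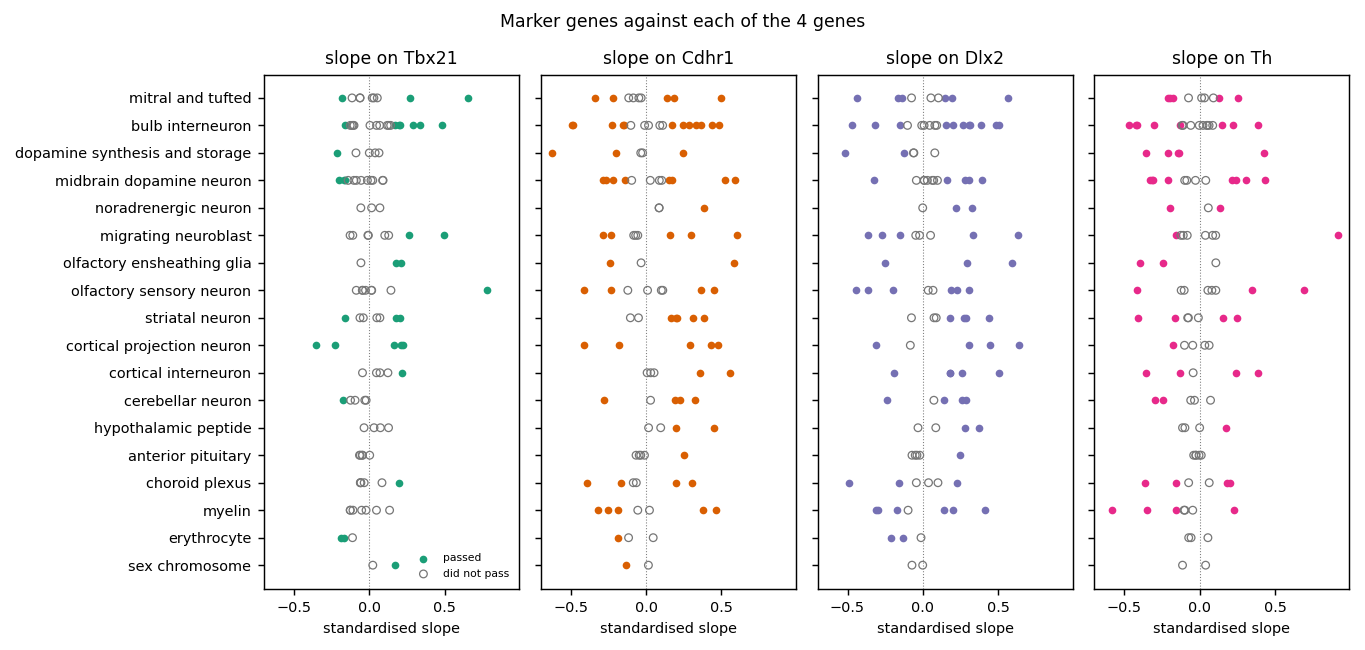
Within-batch standardised slope of each measured marker gene on Tbx21, Cdhr1, Dlx2 and Th, by list; filled points passed the limma test at an adjusted p under 0.05 and open points did not. Slopes on Tbx21 lie close to 0 except for a few genes such as S100a5 (0.779) and Doc2g (0.657), and slopes on Th include Sox11 at 0.916.

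A single mouse stood apart. Mouse 75, of form 1 in the lower block, had the highest value of all 292 mice for Tbx21 (0.572, with 0.276 in the next mouse), Cdhr1 (0.118), Dlx2 (0.132), Scgn (0.577), S100a5 (0.864) and Doc2g (0.305). Its Th value was -0.0101, the 169th from the top, and its array SD of 0.0657 was close to the median of 0.068. Without it, r was 0.438 for Tbx21 with Cdhr1, 0.336 for Tbx21 with Dlx2 and 0.688 for Cdhr1 with Dlx2.

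No gene met the rule used here for separate clusters of mice, which does not show that there are none. A Gaussian mixture with 2 components gained 6.27 units of the Bayesian information criterion for Tbx21, with means 2.67 SDs apart, against a required gain of 10 and gap of 3 SDs. The gains were 6.28 for Cdhr1, 4.08 for Dlx2 and -0.509 for Th.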

How the data were processed

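Brain RNA of 292 mice was measured on 292 arrays of 2 colours. The deposited values are log10 ratios of mouse over pool, 1 per probe and array. Base and direction are not stated and were taken from the dyes in the labels and from the values. Per the labels' protocols, total RNA was cleaned on spin columns, treated with DNase and amplified with a kit that adds aminoallyl groups. Of image analysis, background correction and normalization, the method is not given in the sources used here.

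The table held 23574 probes. The 25 probes missing on more than 5% of arrays were left out, the mean of the probe replaced 252 missing values, and no further normalization was applied. Probes took their gene from the platform annotation. Of 13665 probes with 1 gene, 12645 were named through the gene identifier in the RefSeq table of GRCm38.p6, and the probe with the largest SD stood for a gene with several, except where probes near Th are counted by probe.

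Tests were run with limma 3.58.1 in R 4.3.3, two-sided, with Benjamini-Hochberg adjustment over all probes and a threshold of 0.05, with 3 batches as a term. For slopes, values were standardised within batch. For Tbx21 limma pooled the variance fully over probes, so its slopes share an SE. Mixtures were fitted with mclust 6.1.1. The limma fits were tested on simulated data. Permutation tests drew 100000 shuffles. No fit or shuffle took account of the order of mouse numbers within a batch. The alternatives were array centring, array scaling, array weights, 2 blocks in place of 3 batches, no batch term, ranks, and leaving out the 2 farthest mice or the 3 arrays with an SD over probes above 0.135, all of them from 213. Chosen after seeing the data were the first 3 principal components as covariates, leaving out mouse 75, and each probe's own variance. Mice are separate animals with 1 array each, so the spread includes measurement error.

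The members and the 18 marker lists (149 genes, 114 measured) were chosen with earlier results of these data known. The named genes were the 5 with the highest and the 2 with the lowest slope on each member, and of each list up to 4 examples with the largest slope in size on Cdhr1 or Th. Genes outside this rule were named after their values were seen, among them Dlx1, Eomes, Igfbpl1, Sox4 on Dlx2, Omp and Eif2s3y.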

Additional observations from a re-analysis of the deposited data

Results flagged for a closer look

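The slope between Cdhr1 and Th differed between the number blocks by the test of the difference itself. It was -0.0238 in mice from 213, against 0.253 in mice up to 212, a difference of -0.277 (95% interval -0.501 to -0.0533; limma adjusted p = 0.04), with r of 0.287 in the 77 form 2 mice and 0.218 in the 74 form 1 mice. On Cdhr1 39.8% of all probes passed this test. Spelling was a batch only in mice up to 212, and the part of sex in the difference was not tested. The difference no longer passed with array scaling (-0.237), ranks (-0.263), without the wide arrays (-0.249), array weights (-0.189) or the components as covariates (-0.109), with limma adjusted p from 0.0562 to 0.487.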

How the results depend on the processing

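The block differences of Dlx2 and Th, the slopes among Tbx21, Cdhr1 and Dlx2, and the slope differences of Tbx21 with Cdhr1 and with Dlx2 kept their direction and their side of the threshold under every alternative run. The block difference of Tbx21 became 0.0337 with array weights, and that of Cdhr1 -0.00685 with array centring and -0.0066 with array scaling. With the 3 components as covariates, the probes called fell to 1359 of the 5025 on Tbx21, 5736 of 15743 on Cdhr1, 5466 of 15848 on Dlx2 and 1329 of 13729 on Th; for the slope difference between blocks they were 90 of 3469 on Tbx21, 2471 of 9382 on Cdhr1 and 3842 of 9687 on Dlx2. Array scaling called 3069 on Tbx21, and for its slope difference no batch term called 2190, ranks 5380, leaving out the 2 farthest mice 5416 and leaving out mouse 75 5307.

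The r of Tbx21 with Th passed with no batch term (0.163), ranks (0.181), without the 2 farthest mice (0.167) and without mouse 75 (0.16), and its slope difference passed with ranks (-0.344), without the 2 farthest mice (-0.319) and without mouse 75 (-0.305). The r of Cdhr1 with Th passed with ranks (0.15), without the 2 farthest mice (0.122), without the wide arrays (0.139) and without mouse 75 (0.128), and turned to -0.0704 with the components. Its slope difference no longer passed with scaling (-0.237), ranks (-0.263), without the wide arrays (-0.249), array weights (-0.189) or components (-0.109). For Cdhr1 with Dlx2 the slope difference was 0.242 with no batch term and turned to -0.0656 with array weights and -0.0722 with components. The r of Dlx2 with Th no longer passed with ranks (-0.0922) or components (-0.0493), and its slope difference turned to 0.0195 with ranks. The cause was not tested for any of these.

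Of 308 values for the 28 named slopes under alternatives, 305 kept direction and side. The others were 0.0745 for Sars2 on Dlx2, -0.127 for Tuba3b on Th and -0.0218 for Tuba3a on Th, each with the components as covariates. Another probe of the same gene could not be tried, since each of the 4 genes has 1 probe, and array weights gave slopes but no r. No paired analysis was possible because the mice form 1 group and a mouse number names an animal. Signal over background is unknown, so a weak probe cannot be told from an evenly expressed gene.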
